A study of Mus musculus with 3 samples.

Results

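The enzymes that hydroxylate and crosslink collagen were measured in C3H10T1/2, a mesenchymal line of mouse origin, on Affymetrix Mouse Genome 430 2.0 arrays. They comprise the lysyl oxidases Lox, Loxl1, Loxl2, Loxl3 and Loxl4, the lysyl hydroxylases Plod1, Plod2 and Plod3, and the prolyl 4-hydroxylase subunits P4ha1 and P4ha2. These 10 genes were taken as a list of names, and every probe set whose only annotated gene symbol was one of them was kept. This gave 16 probe sets for 9 of the 10 genes, among 18193 genes with such a probe set on the array. Loxl2 had none, because both of its probe sets also carry the symbol Gm21451. These 2 probe sets held an equal value on all 3 arrays, 2.72 for 1431004_at and 2.58 for 1452436_at, so Loxl2 is not described further.

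RNA was taken from cells carrying a retroviral vector for Venus-Mkx, a fusion of the fluorescent protein Venus with the homeobox factor Mohawk (C3H10T1/2-VM), from cells carrying Venus alone (C3H10T1/2-V), and from C3H10T1/2 cells without a vector. The labels give all 3 the same growth medium, α-minimum essential medium with serum and antibiotics. The vectors were transferred in medium with puromycin, and whether the cells without a vector also received puromycin is not stated, so against C3H10T1/2 the vector and this exposure cannot be told apart. The sources used here do not state which promoter drove the vectors or whether a culture was a single clone. Each condition was read on 1 array, so no value has an error, no p-value is given and an effect of the vector and a chance difference between cultures cannot be told apart. Values are log2 probe set values as deposited, from 1.44 to 13.997.

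Fibrillar collagen is modified in steps. In the endoplasmic reticulum, prolyl 4-hydroxylases convert prolines to 4-hydroxyproline, which stabilizes the triple helix, and lysyl hydroxylases convert some lysines to hydroxylysine, the site of sugar attachment and a precursor of stable crosslinks. Outside the cell, lysyl oxidases, which are copper-dependent amine oxidases, turn lysine and hydroxylysine at the ends of the chains, and lysine in elastin, into reactive aldehydes from which crosslinks form. Tendon, ligament and the annulus fibrosus depend on these crosslinks for their tensile strength.

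A gene was called measured if at least 1 array held a value at or above 4.34, the median over all arrays and here called the floor, and 11169 genes were. For a gene with several probe sets, the one with the highest mean represented it. Mkx itself was read by the probe set 1437492_at at 2.71 in Venus-Mkx, against 7.43 in Venus and 6.88 in C3H10T1/2. This is not the higher value that the label would lead one to expect. Whether the probe set lies within the part of Mkx carried by the vector is not known here, so a conflict with the label was not settled. The sample is therefore named below by its label, as the array labelled Venus-Mkx. All 8 mesenchymal markers examined (Vim, Thy1, Pdgfra, Pdgfrb, Col1a1, Col1a2, Fn1 and S100a4) were measured. The macrophage markers Ptprc, Cd68, Adgre1 and Tyrobp, the endothelial markers Pecam1, Cdh5 and Kdr, and the epithelial markers Cdh1, Krt8 and Krt18 were below the floor on all 3 arrays. Of the 14 markers of other cell types, only Csf1r, Cd14, Tek and Epcam were measured. Epcam was measured only through 1447899_x_at, at 7.60 under the Venus-Mkx label, 7.03 in Venus and 6.74 in C3H10T1/2. Its other probe set, 1416579_a_at, read 3.06 on all 3 arrays, below the floor. The summed level (log2 of the sum) of the 6 macrophage markers was 7.76 on the array labelled Venus-Mkx, 7.63 in Venus and 7.22 in C3H10T1/2, that of the 4 endothelial markers 6.45 under the Venus-Mkx label, 5.34 in Venus and 5.60 in C3H10T1/2, and that of the 4 epithelial markers 7.80 under the Venus-Mkx label, 7.39 in Venus and 7.13 in C3H10T1/2. Tek read 5.95 under the Venus-Mkx label, 4.02 in Venus, below the floor, and 4.53 in C3H10T1/2. Csf1r read 6.62 under the Venus-Mkx label, 5.39 in Venus and 4.45 in C3H10T1/2. Cd14 read 6.49 under the Venus-Mkx label, 6.99 in Venus and 6.62 in C3H10T1/2. Tek and Csf1r were at least 2-fold above each control, but Csf1r was not with its other probe sets. The part of these markers in the results was not tested.

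On the array labelled Venus-Mkx, P4ha2 and Plod2 were at least 2-fold lower than in both controls, and the other 7 measured enzymes, each by the probe set that represented it, were less than 1.5-fold from either control. None of the 9 was at least 2-fold higher. Over all measured genes, 5.34% were at least 2-fold lower than both controls and 6.82% at least 2-fold higher. The median log2 difference of the 9 enzymes was 0.14 from Venus and −0.09 from C3H10T1/2, and the median of all measured genes was 0.00 from each. With all probe sets of a gene averaged, the median of the enzymes was −0.07 from Venus, so its sign depends on the choice of probe set. The representing probe sets of all 9 enzymes were above the floor on every array. The floor is a median of the values and not a measured background. In cultured cells read in bulk, fewer cells that express a gene and less of its RNA per cell cannot be told apart.

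**Figure D1:**
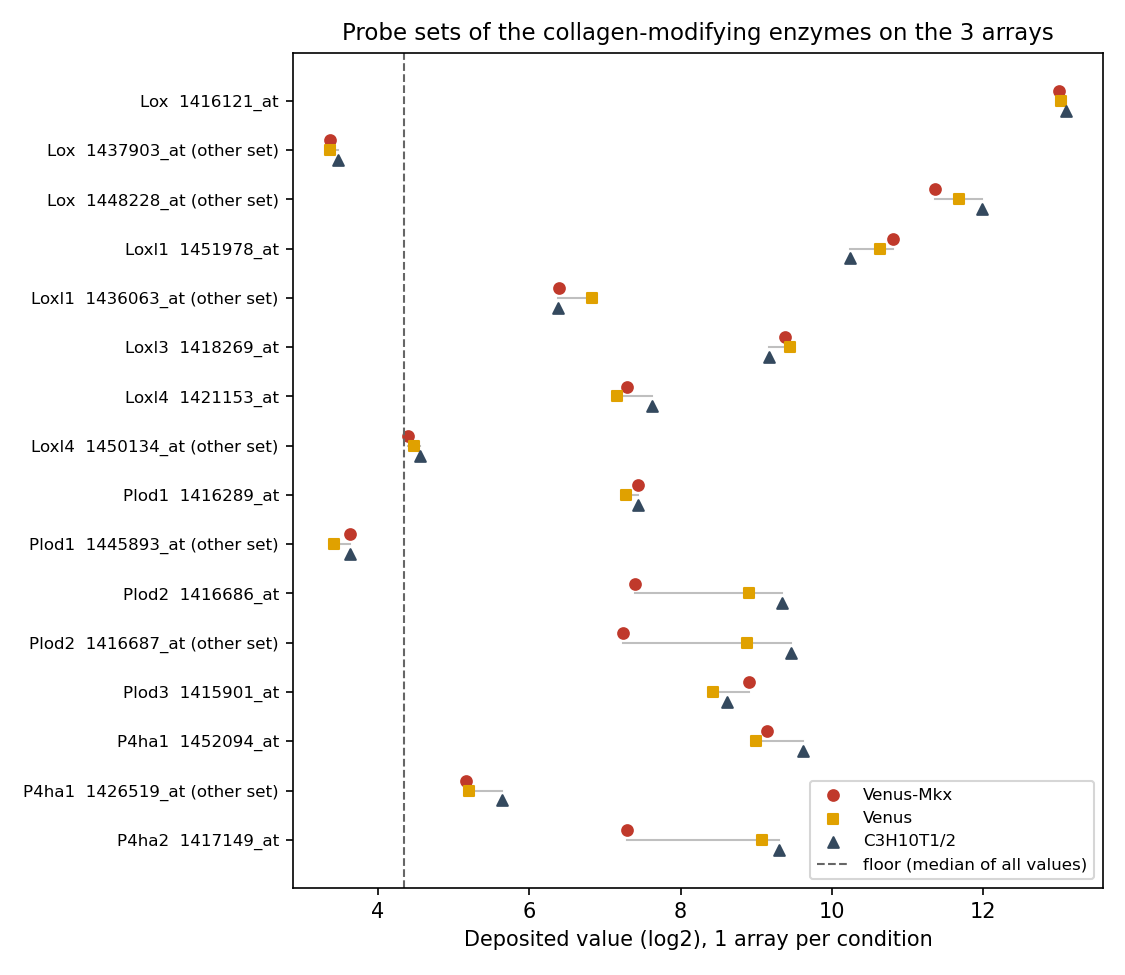
Deposited log2 value of the 16 probe sets of the collagen-modifying enzymes (horizontal axis), with 1 array per condition. Red circles are the array labelled Venus-Mkx, yellow squares Venus, dark triangles C3H10T1/2, and the dashed line is the floor of 4.34. The circles of both Plod2 probe sets and of P4ha2 lie well to the left of the control symbols, from 7.23 to 7.39 against 8.88 to 9.46.

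P4ha2 encodes one of the catalytic alpha subunits of prolyl 4-hydroxylase, which also takes up a common beta subunit. It was read by 1 probe set, 1417149_at, at 7.28 on the array labelled Venus-Mkx, 9.07 in Venus and 9.30 in C3H10T1/2. The 2 controls lay close together and the array labelled Venus-Mkx well below them. The log2 difference was −1.79 from Venus and −2.01 from C3H10T1/2, a level 3.45-fold lower than in Venus and 4.04-fold lower than in C3H10T1/2. Of all measured genes, 289 (2.59%) had a lower difference from Venus. Between Venus and C3H10T1/2, 53 genes (0.475%) were as far apart as P4ha2 was between the array labelled Venus-Mkx and Venus.

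P4ha1, the alpha subunit used most widely among tissues, did not show this. Its probe set 1452094_at read 9.15 on the array labelled Venus-Mkx, 8.997 in Venus and 9.62 in C3H10T1/2, so that Venus was the lowest and C3H10T1/2 the highest. The differences of the array labelled Venus-Mkx were 0.15 from Venus and −0.48 from C3H10T1/2. Its other probe set, 1426519_at, read 5.16 under the Venus-Mkx label, 5.20 in Venus and 5.64 in C3H10T1/2. Here too both vector-carrying cells were below C3H10T1/2, and the log2 differences were −0.05 from Venus and −0.49 from C3H10T1/2. The difference of P4ha2 was 1.94 below that of P4ha1 against Venus (−1.94 on the log2 scale) and 1.54 below it against C3H10T1/2 (−1.54). A constant shift of 1 array against another cancels in these values. The remaining alpha subunit gene, P4ha3, named after its values were seen, read 7.42 under the Venus-Mkx label, 8.37 in Venus and 7.71 in C3H10T1/2, and the log2 differences were −0.96 from Venus and −0.30 from C3H10T1/2. P4hb, the common beta subunit, read 12.43 under the Venus-Mkx label, 12.52 in Venus and 12.43 in C3H10T1/2, a log2 difference of −0.09 from Venus and 0.00 from C3H10T1/2.

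The stretches before the start sites of P4ha2 and P4ha1 are shown because these paralogues differed on the same arrays and both are known in cultured cells as targets of the hypoxia-inducible factor HIF-1. Sequences are from RefSeq on GRCm38.p6, 5′ to 3′ on the plus strand of chromosomes 11 and 10. Capitals mark ACGTG, the core of the hypoxia response element, and its variant GCGTG, read on either strand, so that a match of ACGTG on the minus strand appears as CACGT and one of GCGTG as CACGC. The P4ha2 stretch, chr11:54100674-54100923, holds the 250 bases before the start site. The P4ha1 stretch, chr10:59323046-59323196, ends where the annotated gene begins, and a second piece, chr10:59323270-59323294, shows the match 16 bases before the start site that was used.
P4ha2: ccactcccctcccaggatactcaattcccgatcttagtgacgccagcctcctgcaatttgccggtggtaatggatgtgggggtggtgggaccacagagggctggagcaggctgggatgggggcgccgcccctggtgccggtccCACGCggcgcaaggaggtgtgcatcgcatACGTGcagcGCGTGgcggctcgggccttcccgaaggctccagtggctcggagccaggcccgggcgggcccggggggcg
P4ha1: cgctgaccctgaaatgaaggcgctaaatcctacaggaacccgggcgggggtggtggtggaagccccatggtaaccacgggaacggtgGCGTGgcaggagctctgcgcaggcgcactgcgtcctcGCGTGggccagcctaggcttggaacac
P4ha1, near the start site: tgacagagcgCACGTagcgagggct

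P4ha2 and P4ha1 each held 1 ACGTG and 2 GCGTG in the 250 bases before the start site. RefSeq windows were at hand for 5 of the enzymes, and Plod2 was not among them. ACGTG lay in 3 of them, P4ha2, P4ha1 and Plod3, and GCGTG in all 5, Plod1 and Loxl4 included. Of 32851 windows of equal length over all genes, 16.6% held ACGTG and 28.2% held GCGTG. The hypoxia motif ACGTG is also part of the E-box CACGTG, which none of the 5 windows held. A match is a description of the letters and not a site, and no enrichment was tested.

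Plod2 encodes lysyl hydroxylase 2, which acts on lysines in the short non-helical ends of collagen chains, where hydroxylation leads to the hydroxylysine-derived crosslinks of stiff tissues. Its probe set 1416686_at read 7.39 on the array labelled Venus-Mkx, 8.90 in Venus and 9.34 in C3H10T1/2, and its probe set 1416687_at read 7.23 under the Venus-Mkx label, 8.88 in Venus and 9.46 in C3H10T1/2. Both probe sets thus placed the arrays in the same order, with the array labelled Venus-Mkx lowest. The differences of 1416686_at were −1.51 from Venus and −1.94 from C3H10T1/2, a level 2.84-fold lower than in Venus and 3.84-fold lower than in C3H10T1/2, and those of 1416687_at were −1.65 from Venus and −2.22 from C3H10T1/2. A lower difference from Venus was found for 396 measured genes (3.55%), and 85 genes (0.761%) were as far apart between Venus and C3H10T1/2.

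Plod1, which encodes lysyl hydroxylase 1, an enzyme of lysines within the triple helix, read 7.44 under the Venus-Mkx label, 7.28 in Venus and 7.44 in C3H10T1/2 with 1416289_at. Its differences were 0.17 from Venus and 0.00 from C3H10T1/2. The other probe set of Plod1, 1445893_at, was below the floor on all 3 arrays, at 3.63 under the Venus-Mkx label, 3.42 in Venus and 3.63 in C3H10T1/2. Plod3, whose product adds sugars to hydroxylysine besides hydroxylating lysine, read 8.91 under the Venus-Mkx label, 8.43 in Venus and 8.61 in C3H10T1/2 with 1415901_at. Its differences of 0.48 from Venus and 0.30 from C3H10T1/2 were both above 0, and it had the highest difference from Venus among the 9 enzymes. Against Venus the difference of Plod2 was −1.67 relative to that of Plod1 and −1.98 relative to that of Plod3, and against C3H10T1/2 it was −1.94 relative to Plod1 and −2.24 relative to Plod3.

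**Figure D2:**
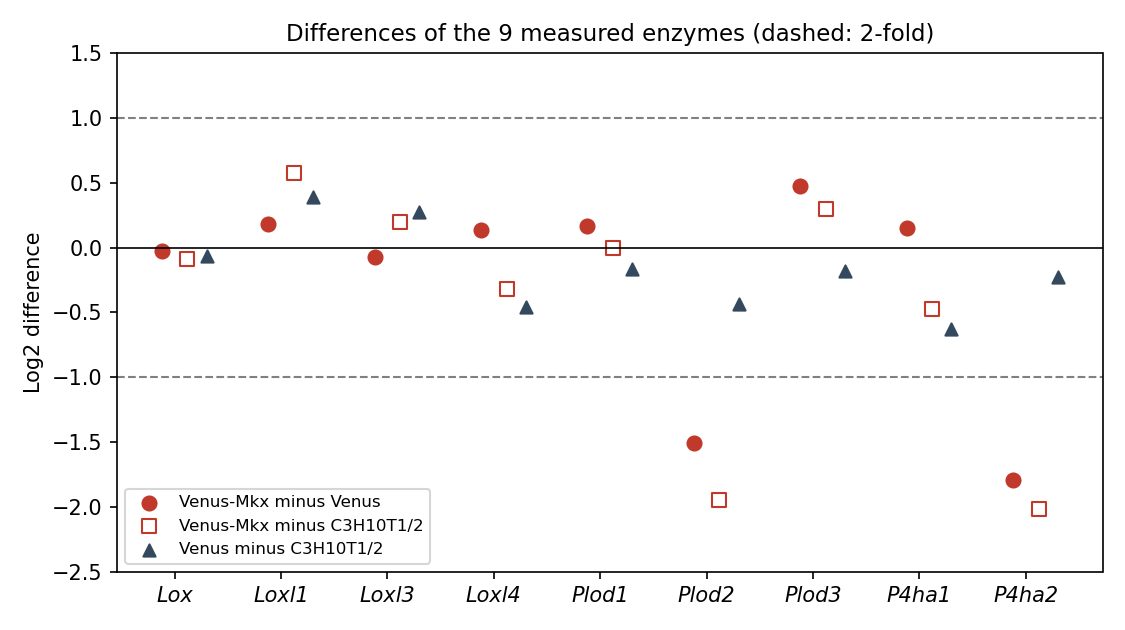
Log2 differences of the 9 measured enzymes (vertical axis), by gene, 1 array per condition. Filled circles are Venus-Mkx minus Venus, open squares Venus-Mkx minus C3H10T1/2, dark triangles Venus minus C3H10T1/2, and dashed lines mark 2-fold. Only Plod2 (−1.51 from Venus and −1.94 from C3H10T1/2) and P4ha2 (−1.79 from Venus and −2.01 from C3H10T1/2) pass the lower line, and no triangle passes either line.

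By the probe set that represented each, the 4 measured lysyl oxidases differed little between the arrays. Their differences ran from −0.07 to 0.18 against Venus and from −0.32 to 0.57 against C3H10T1/2. With 1448228_at for Lox and 1436063_at for Loxl1, the differences from Venus lay below that range. Lox, the founding member of the family, which acts on fibrillar collagens and elastin, read 12.9996 on the array labelled Venus-Mkx, 13.02 in Venus and 13.09 in C3H10T1/2 with 1416121_at. This lies near the highest value of the arrays, 13.997, where a difference can be compressed. The probe set 1448228_at of Lox read 11.36 under the Venus-Mkx label, 11.67 in Venus and 11.99 in C3H10T1/2, and the log2 differences were −0.31 from Venus and −0.62 from C3H10T1/2. Both probe sets had the array labelled Venus-Mkx lowest and C3H10T1/2 highest, neither reached 2-fold, and the remaining probe set, 1437903_at, was below the floor on all 3 arrays, at 3.37 under the Venus-Mkx label, 3.37 in Venus and 3.46 in C3H10T1/2.

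Loxl1, which is needed for the upkeep of elastic fibres in mice, read 10.81 on the array labelled Venus-Mkx, 10.63 in Venus and 10.24 in C3H10T1/2 with 1451978_at. Its differences of 0.18 from Venus and 0.57 from C3H10T1/2 were above 0. The probe set 1436063_at of Loxl1 placed the arrays otherwise, at 6.39 under the Venus-Mkx label, 6.83 in Venus and 6.38 in C3H10T1/2, and the log2 differences were −0.43 from Venus and 0.01 from C3H10T1/2, so its probe sets disagree on the sign against Venus. Loxl3, a lysyl oxidase with scavenger receptor domains, read 9.37 under the Venus-Mkx label, 9.44 in Venus and 9.17 in C3H10T1/2 with 1418269_at. Its differences were −0.07 from Venus and 0.20 from C3H10T1/2. Loxl4, of the same subgroup, read 7.30 under the Venus-Mkx label, 7.16 in Venus and 7.61 in C3H10T1/2 with 1421153_at, a log2 difference of 0.14 from Venus and −0.32 from C3H10T1/2, and close to the floor with 1450134_at, at 4.40 under the Venus-Mkx label, 4.47 in Venus and 4.56 in C3H10T1/2.

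**Figure D3:**
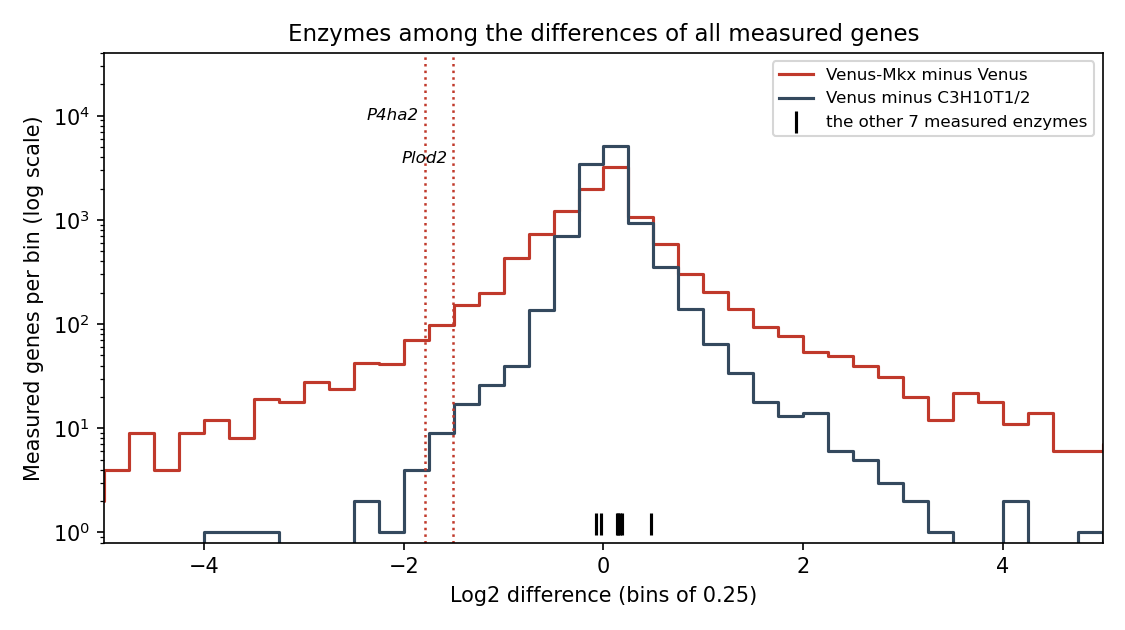
Number of measured genes (vertical axis, log scale) per bin of log2 difference (horizontal axis, cut at −5 and 5), in red for Venus-Mkx minus Venus and in dark blue for Venus minus C3H10T1/2. Dotted lines mark Venus-Mkx minus Venus for P4ha2 (−1.79) and Plod2 (−1.51), in the lower tail, and ticks mark the other 7 measured enzymes, from −0.07 to 0.48.

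Between the controls, none of the 9 enzymes was at least 2-fold apart, and 2.04% of measured genes were. The differences of Venus from C3H10T1/2 ran from −0.63 for P4ha1 to 0.39 for Loxl1. They were below 0 for 7 enzymes and above 0 for Loxl1 and Loxl3, with a median of −0.18. Of all 11169 measured genes, 4404 were below 0, 4996 above 0 and 1769 equal to 0, with a median of 0.00. For P4ha1, 598 measured genes (5.35%) had a larger difference between the controls in either direction. Its other probe set differed by −0.44. Loxl4 differed by −0.45, Plod2 by −0.44 and −0.57 with its probe sets, and P4ha2 by −0.23. The SD of these differences over all measured genes was 0.34, and that of the differences of the array labelled Venus-Mkx from Venus was 0.94.

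The genes whose pair of differences, from Venus and from C3H10T1/2, lay closest to that of P4ha2 were Cers6, which encodes a ceramide synthase, Kcnf1, which encodes a potassium channel subunit, and Hip1r, at Euclidean distances of 0.097, of 0.11 and of 0.12 on the log2 scale. Cers6 read 6.40 on the array labelled Venus-Mkx, 8.11 in Venus and 8.36 in C3H10T1/2, and Kcnf1 read 3.44 under the Venus-Mkx label, 5.28 in Venus and 5.55 in C3H10T1/2, under the floor of 4.34 on the first of these. Those closest to Plod2 were Tead4, a transcription factor gene of the Hippo pathway, Il17d, a cytokine gene, and Svep1, which encodes a secreted matrix protein, at 0.030, at 0.062 and at 0.069. Svep1 read 7.16 under the Venus-Mkx label, 8.72 in Venus and 9.06 in C3H10T1/2, whereas Tead4 lay under the floor on 1 array, the one labelled Venus-Mkx, and Il17d on 2, that array and Venus. With 3 arrays, likeness rests on these 2 differences alone.

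Partners of the hydroxylases and collagen chaperones were mostly a little higher on the array labelled Venus-Mkx than in either control, by less than 2-fold. Of 12 measured genes of 14 listed, none was at least 2-fold higher or lower. As read, 8 were above both controls, P4ha3 was below both and 3 lay between them or equal to one. Of the 11169 measured genes, 4777 were above Venus and 4878 above C3H10T1/2 on this array. How many lay above both was not counted, and this number cannot exceed the 4777 above Venus. The median difference of the list was 0.39 from Venus and 0.39 from C3H10T1/2. The SD of the differences from Venus over all measured genes was 0.94. P3h3, a prolyl 3-hydroxylase family gene, differed by 0.94 from Venus and 0.91 from C3H10T1/2, and Crtap, whose product forms the prolyl 3-hydroxylation complex with P3h1, by 0.79 from Venus and 0.87 from C3H10T1/2. P3h1 itself differed by 0.63 from Venus and 0.42 from C3H10T1/2. Serpinh1, which encodes the collagen chaperone HSP47, differed by 0.55 from Venus and 0.77 from C3H10T1/2, and Colgalt1, which encodes a galactosyltransferase that acts on hydroxylysine, by 0.57 from Venus and 0.58 from C3H10T1/2. Fkbp14, a prolyl isomerase gene, differed by 0.49 from Venus and 0.55 from C3H10T1/2. Between Venus and C3H10T1/2, P3h2 was the only gene of this list at least 2-fold apart, with a difference of −1.43. It was named after its values were seen.

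The substrates, fibrillar collagens and elastin, differed in both directions. Of 11 measured genes of 12 listed, the array labelled Venus-Mkx had 2 that were at least 2-fold above each control, 4 at least 2-fold below each and 5 that were neither, with a median difference of −0.70 from Venus. Col1a1, for the main chain of type I collagen, read 13.22 on the array labelled Venus-Mkx, 11.88 in Venus and 11.52 in C3H10T1/2. Its other probe set, 1455494_at, read 12.56 under the Venus-Mkx label, 11.74 in Venus and 11.29 in C3H10T1/2. Both were highest on the array on which P4ha2 and Plod2 were lowest, but with the other probe set Col1a1 was only 0.82 above Venus and would not count among the 2 higher genes. Col11a2, which encodes a chain of the minor fibrillar collagen XI, was the other higher gene, at 6.88 under the Venus-Mkx label, against values below the floor in both controls. Col3a1, which encodes type III collagen, read 9.68 under the Venus-Mkx label, 13.53 in Venus and 13.10 in C3H10T1/2. The lower genes further included Col11a1, another chain of collagen XI, at 7.56 under the Venus-Mkx label, 9.55 in Venus and 10.05 in C3H10T1/2. Col2a1, the type II collagen gene of cartilage, read 9.20 under the Venus-Mkx label, 10.53 in Venus and 10.99 in C3H10T1/2, and Col27a1 read 6.20 under the Venus-Mkx label, 7.30 in Venus and 8.39 in C3H10T1/2. Col1a2 read 13.91 under the Venus-Mkx label, 13.75 in Venus and 13.71 in C3H10T1/2, again near the top of the scale, and Eln, the elastin gene, read 7.17 under the Venus-Mkx label, 6.92 in Venus and 7.63 in C3H10T1/2.

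**Figure D4:**
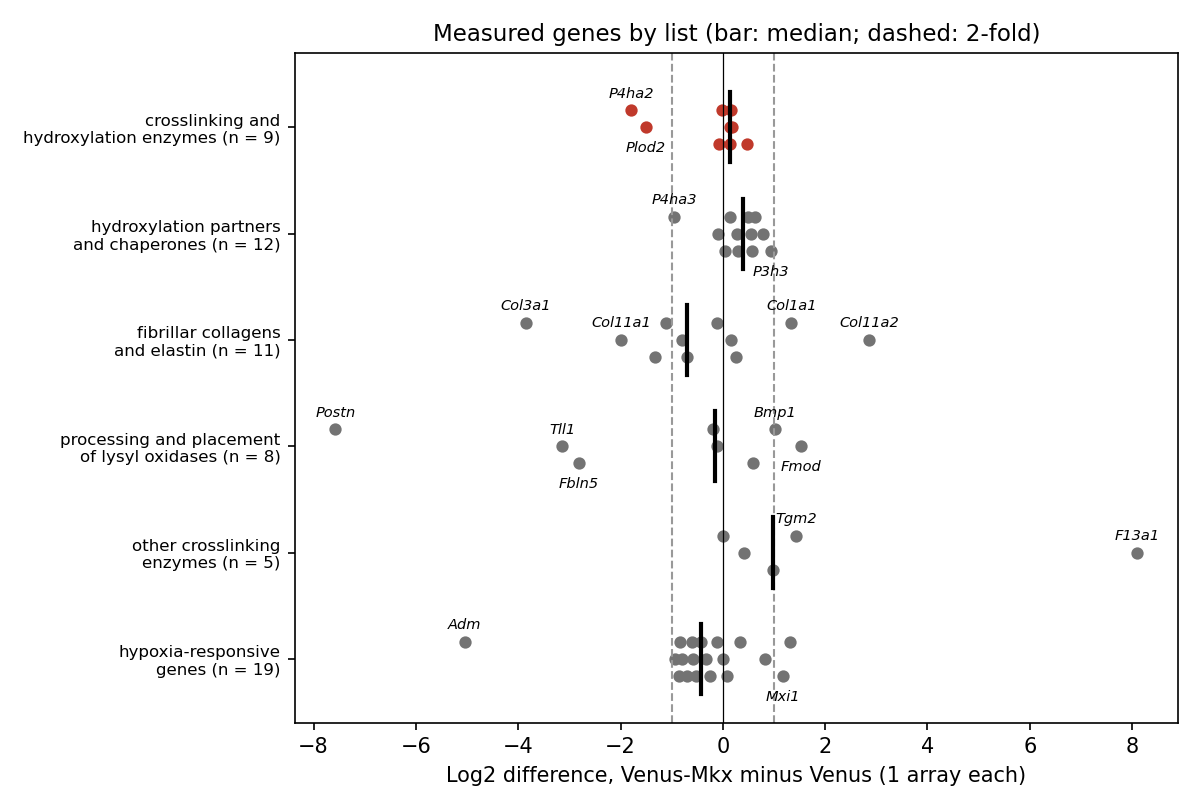
Venus-Mkx minus Venus in log2 units (horizontal axis) for measured genes of 6 lists, from 1 array for either condition. Points are genes, with a vertical offset for legibility only, black bars are medians and dashed lines mark 2-fold. The enzymes in red cluster near 0 apart from P4ha2 and Plod2, and the medians run from −0.70 for fibrillar collagens and elastin to 0.98 for the other crosslinking enzymes.

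Genes that process lysyl oxidases or place them on the matrix lay on both sides of the controls. Of 8 measured genes of 10 listed, Bmp1 was at least 2-fold above each control, Postn, Fbln5 and Tll1 at least 2-fold below each, and the other 4 did not reach 2-fold in 1 direction against both. The median difference was −0.15 from Venus. Bmp1, the protease that cleaves the propeptide from Lox as well as from procollagen, read 9.03 on the array labelled Venus-Mkx, 8.01 in Venus and 7.98 in C3H10T1/2, just past 2-fold. With another probe set, 1427457_a_at, Bmp1 was 0.72 above Venus and 1.16 above C3H10T1/2, and not 2-fold higher than both. Its relative Tll1 read 3.20 under the Venus-Mkx label, below the floor, against 6.35 in Venus and 5.78 in C3H10T1/2. Postn, which encodes periostin, a matrix protein that helps Bmp1 act on Lox, read 4.81 under the Venus-Mkx label, 12.39 in Venus and 11.92 in C3H10T1/2. Fbln5, which encodes fibulin-5, a binder of Loxl1 in elastic fibres, read 9.59 under the Venus-Mkx label, 12.40 in Venus and 12.56 in C3H10T1/2. Fmod, which encodes fibromodulin, a collagen-binding proteoglycan that modulates Lox, differed by 1.53 from Venus and 0.36 from C3H10T1/2, and Pcolce, the procollagen C-proteinase enhancer, by 0.60 from Venus and 0.69 from C3H10T1/2. The other probe set of Pcolce, 1448433_a_at, was at least 2-fold above each control, by 1.44 from Venus and 1.44 from C3H10T1/2, so its call depends on the probe set. Lox itself, with its main probe set, differed by −0.02 from Venus and −0.09 from C3H10T1/2 on these same arrays.

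Enzymes that crosslink matrix proteins by other chemistry were higher or level on the array labelled Venus-Mkx. Of 5 measured genes of 7 listed, F13a1 and Tgm2 were at least 2-fold above each control and none was as far below, with a median difference of 0.98 from Venus. F13a1, which encodes the catalytic chain of the transglutaminase factor XIII, read 11.02 on the array labelled Venus-Mkx, against 2.91 in Venus and 2.66 in C3H10T1/2, both below the floor. Tgm2, which encodes tissue transglutaminase, read 9.26 under the Venus-Mkx label, 7.83 in Venus and 7.95 in C3H10T1/2. Qsox1, a sulfhydryl oxidase gene, differed by 0.98 from Venus and 1.33 from C3H10T1/2, just short of 2-fold from Venus. With its probe set 1420831_at the values were 1.04 from Venus and 1.396 from C3H10T1/2, at least 2-fold above each. For Tgm2, 4 of 6 probe sets passed 2-fold against both controls. Tgm5 differed by 0.41 from Venus and 1.03 from C3H10T1/2, from values below the floor in both controls.

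Hypoxia-responsive genes were listed because P4ha1, P4ha2, Plod2 and Lox are known to respond to low oxygen in cultured cells. Of 19 measured genes of 22 listed, only Adm was at least 2-fold below each control on the array labelled Venus-Mkx, none was as far above and 18 were neither. As read, 12 were below both controls and 5 above both, with a median difference of −0.42 from Venus and −0.74 from C3H10T1/2. Of the 11169 measured genes, 5115 were below Venus and 5031 below C3H10T1/2 on this array. How many lay below both was not counted, and this number cannot exceed the 5031 below C3H10T1/2. Adm, the adrenomedullin gene, read 4.04 under the Venus-Mkx label, below the floor, against 9.08 in Venus and 8.94 in C3H10T1/2. Higd1a, a mitochondrial protein gene, differed by −0.94 from Venus and −1.18 from C3H10T1/2, Slc2a1, which encodes the glucose transporter GLUT1, by −0.85 from Venus and −1.55 from C3H10T1/2, Ero1a, an oxidase of the endoplasmic reticulum, by −0.84 from Venus and −1.25 from C3H10T1/2, and Bnip3 by −0.70 from Venus and −1.20 from C3H10T1/2. The calls and sizes of several depended on the probe set. The other 2 probe sets of Ero1a were at least 2-fold below each control, with −1.39 from Venus and −1.92 from C3H10T1/2 for 1419029_at and −1.13 from Venus and −1.52 from C3H10T1/2 for 1419030_at. Egln1, an oxygen-sensing prolyl hydroxylase gene named after its values were seen, differed by −0.59 from Venus and −0.85 from C3H10T1/2, and by −1.07 from Venus and −1.31 from C3H10T1/2 with 1451110_at. The other 2 probe sets of Higd1a differed from Venus by only −0.06 and −0.22. Mxi1, a gene of the Myc network, ran the other way, by 1.17 from Venus and 0.99 from C3H10T1/2. With its other probe set, Mxi1 differed by 0.11 from either control. Pdk1 and Kdm3a, named after their values were seen, were also above both controls. Pdk1 differed by 1.32 from Venus and 0.69 from C3H10T1/2, and Kdm3a by 0.83 from Venus and 0.33 from C3H10T1/2. Between Venus and C3H10T1/2 the median of this list was −0.29. By the probe set that represented each, P4ha2 and Plod2 were further below Venus than every measured gene of this list except Adm. Against C3H10T1/2, both Adm and Ankrd37 were further below than either enzyme. Ankrd37, also named after its values were seen, differed by −2.63 from C3H10T1/2 but by −0.34 from Venus. Only its C3H10T1/2 value reached the floor. P4ha1 and Lox were within 0.15 of Venus with their main probe sets. From C3H10T1/2, P4ha1 differed by −0.48 and Lox by −0.09, or by −0.62 with 1448228_at. Whether a change in the oxygen response lowered P4ha2 and Plod2 was not tested.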

How the data were processed

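The authors deposited log2 probe set values for 3 Affymetrix Mouse Genome 430 2.0 arrays, 1 per condition. The submitters' processing notes name RMA, with no version given in the sources used here, whereas the methods name MAS 5.0. MAS 5.0 signals are linear and these values are not, so they were used as log2 values with no further normalization.

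The table has 45101 probe sets, of which 64 are spike-in or other controls and were not used. In the platform annotation, 34945 had 1 gene symbol, 932 several and 9160 none, with symbols updated by gene ID to GRCm38.p6. Per gene, the probe set with the highest mean was used. A gene counted as higher or lower at 2-fold or more from both controls. No test was possible, and the number of arrays limits the precision. The members and the gene lists were chosen with earlier results of these data known. Named genes were the members, Mkx, up to 6 genes per list with the largest difference from the nearer control, P4hb, Col1a1, Col1a2, Col3a1, Eln and Bmp1, and 3 nearest genes for each of 2 members. The counting rule was run on simulated arrays with added changes of known size. That run checks the code only, since its noise was normal and held no values equal between arrays. The changes it had to find were larger than those of P4ha2 and Plod2 from Venus. Alternatives covered floor, probe sets, scaling, control and fold threshold. Python 3.11.15, NumPy 2.4.6, pandas 2.3.3 and matplotlib 3.10.9 were used.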

Additional observations from a re-analysis of the deposited data

How the results depend on the processing

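Counts and differences were recomputed with another floor (none, or the 75th percentile), another choice of probe sets (their mean per gene, or only sets without the suffix _x_at or _s_at), arrays centred on their medians, quantile normalization, other controls (Venus alone, C3H10T1/2 alone, or their mean) and other fold thresholds. Of 110 recomputed values, 104 kept a count within 1.5 times or moved by less than 0.34. That limit is the SD of the differences between the control arrays. The 104 include values that could not move. With no floor, with the higher floor and without those suffixes, every value equalled the main one. Each enzyme stayed measured under either floor, and no probe set of the enzymes has those suffixes, so these settings say nothing about stability. P4ha2 and Plod2 already passed 2-fold against both controls. The count of lower enzymes therefore could not fall with Venus alone, C3H10T1/2 alone, the mean of the controls or 1.5-fold. A change of sign counted as kept where the value moved by less than 0.34, as for Loxl1 and the median of the enzymes. At 3-fold, 1 enzyme, P4ha2, was lower than both controls in place of 2, since Plod2 differed from Venus by −1.51. At 1.5-fold, 1 enzyme, P4ha1, was apart between Venus and C3H10T1/2 in place of 0. Against C3H10T1/2 in place of Venus, Loxl1 differed by 0.57, Loxl4 by −0.32, Plod2 by −1.94 and P4ha1 by −0.48. P4ha2 ran from −2.01 to −1.76 and Plod2 from −1.94 to −1.46 over all settings. The median of the enzymes, 0.14 from Venus, was −0.07 with all probe sets of a gene averaged, −0.09 against C3H10T1/2 and −0.06 against the mean of the controls. Over the mean of its probe sets, Loxl1 differed from Venus by −0.12, so its sign depends on the probe set. No paired analysis was possible because each condition has 1 array. Signals under the floor may be background, and values near the top of the scale, as for Lox, can hide a difference.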

Other observations

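Values repeat across the arrays and across genes. Of 16 probe sets of the enzymes, both of Plod1 held an equal value on the array labelled Venus-Mkx and in C3H10T1/2, and 1 of Lox held an equal value on the array labelled Venus-Mkx and in Venus. Over the 23630 probe sets that reached the floor on any array, 13.2% were equal between the array labelled Venus-Mkx and C3H10T1/2, 14.1% between the array labelled Venus-Mkx and Venus, and 18.6% between Venus and C3H10T1/2. Each array held 45101 values but 19960 distinct ones for the array labelled Venus-Mkx, 17000 for Venus and 18724 for C3H10T1/2. The difference of 0.00 given for Plod1 is one of these repeated values, as is that of P4hb from C3H10T1/2, at 12.43 on both arrays. Pxdn, one of the other crosslinking enzymes, read 9.45 on all 3 arrays.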
